A study of Mus musculus with 6 samples.

Results

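Late maturation of brown adipocytes in culture was described by comparing BAT day 6 with BAT day 4, using 1 RNA-seq library on each side. Members were all genes with a level of at least 1 FPKM (fragments scaled by exon length and by the number of mapped fragments) in either library, 12468 of the 34465 gene symbols in the table. Of these, 11251 are protein-coding, 118 are short RNA loci (annotated as miRNA, snoRNA, snRNA, miscellaneous RNA or mitochondrial rRNA) and 1099 belong to other types, mainly pseudogenes and long non-coding RNAs. The whole series holds 6 libraries, 1 each for BAT and WAT cells on days 0, 4 and 6. BAT preadipocytes came from the interscapular brown fat of BL6 mice and WAT preadipocytes from the inguinal white fat. Per the study's methods 8 mice aged 3 weeks were used, and cells of the stromal vascular fraction were grown to confluence. All day 4 and day 6 cells had received insulin, dexamethasone, 3-isobutyl-1-methylxanthine and rosiglitazone in serum-containing medium for 48 h, followed by maintenance medium with serum only, whereas day 0 cells were harvested as preadipocytes. Every condition is 1 library, so no difference below has a replicate check, no p-value is given, and the BAT day 4 library is also the end point of the preceding step from day 0.

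Brown adipocytes store triglyceride in many small droplets and carry dense mitochondria, in which the uncoupling protein UCP1 lets protons re-enter the matrix without ATP synthesis so that fuel oxidation yields heat. Adrenergic signalling through cAMP activates both lipolysis and the transcription of thermogenic genes. During differentiation in culture, glucocorticoid, a phosphodiesterase inhibitor and a PPARG agonist start the adipogenic program, while genes of the fibroblast-like precursor, such as those for stress fibres and matrix, are turned down.

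Changes are given as day 6 minus day 4 on the log2(FPKM + 1) scale, where a difference of 1 is 2-fold and the change of low genes is understated, while folds are ratios of FPKM. Among protein-coding genes 325 were at least 2-fold higher on day 6, 2.89% of those described, and 339 were at least 2-fold lower, 3.01%. The median difference was -0.06, with 45.1% of genes higher and 54.9% lower by any amount. Rescaling to TPM, in which each library is made to sum to the same total, moved that median to -0.22. The calls became 239 higher and 673 lower, so that 26.2% of calls were higher in place of 48.9%. Equal sums over genes outside the mitochondrial genome gave a median of -0.08, with 303 higher and 352 lower. TPM over nuclear protein-coding genes only gave -0.16, with 309 higher and 612 lower. Medians of lists are therefore to be read beside the median over all protein-coding genes. Counts within lists are likewise to be read beside the shares of all protein-coding genes given here. For counts of day 4 or day 6 against day 0 no such share was computed. Day 4 is in both steps, so a gene lower on day 6 can more easily lie above day 0 on day 4, and the reverse. Depth was estimated at 20 M fragments on day 4 and 20.1 M on day 6 from the spacing of low values, so it hardly differed between the libraries.

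**Figure D1:**
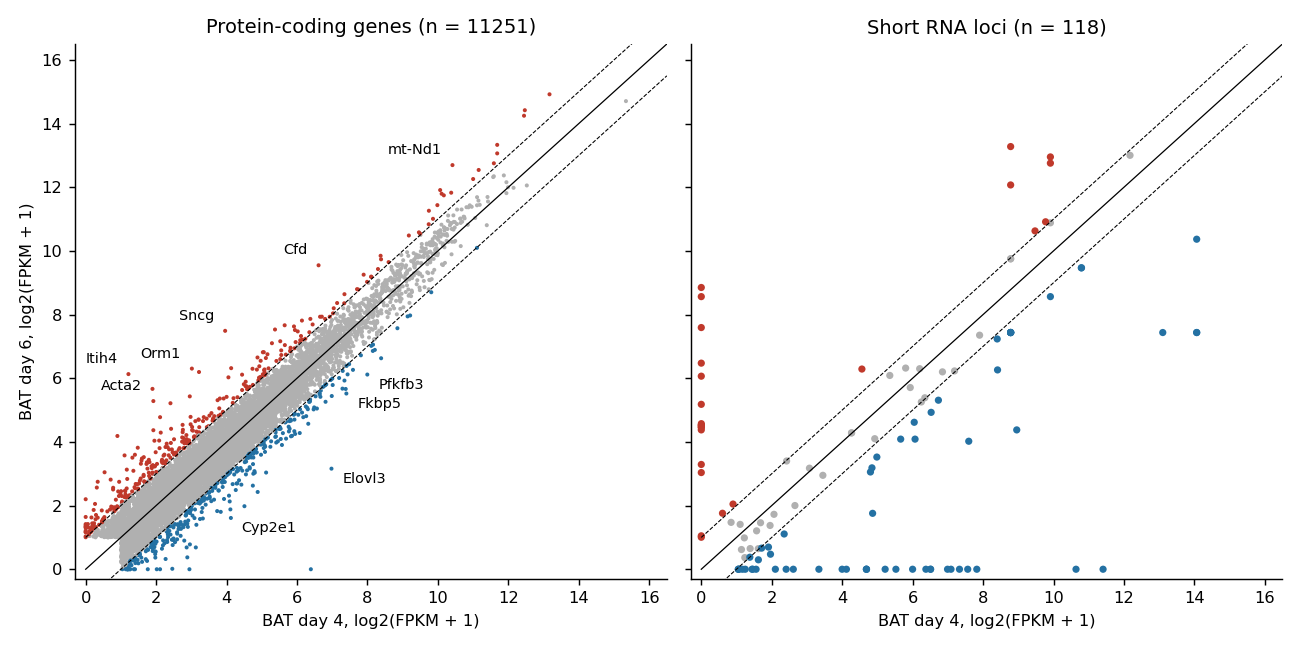
Each point is 1 gene, with its level in the BAT day 4 library on the x axis and in the BAT day 6 library on the y axis, both as log2(FPKM + 1); the solid line marks equal levels and the dashed lines 2-fold, with red points at least 2-fold higher and blue points at least 2-fold lower on day 6. Protein-coding genes (left) lay close to the line, with 325 above and 339 below the 2-fold lines, while 87 of the 118 short RNA loci (right) lay outside them, many on the axes where 1 of the days is listed at 0.

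Smooth muscle and stress fibre genes were among the largest increases. Acta2, smooth muscle actin, was at 183 FPKM on day 0, 2.79 on day 4 and 37.9 on day 6, a 13.6-fold step up from day 4 (95% counting interval 10.9 to 17.0, which covers counting error only, as do all intervals below). Myl9, the regulatory light chain of smooth muscle myosin, went from 45.5 to 0.867 and then 17.2 FPKM, with about 5 fragments on day 4 and a fold of 19.8 that counting alone places between 8.41 and 63.5. Tagln, the actin-binding protein transgelin, was at 134, 4.30 and 36.1 FPKM on days 0, 4 and 6. Cnn2, a calponin, was at 55.8, 2.79 and 19.6 FPKM. In all of these the day 4 library was the low point and day 6 remained below the preadipocyte level.

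Of the 21 described genes in the list of contractile genes and targets of the transcription factors SRF and YAP, 9 were at least 2-fold higher on day 6 and 0 lower by that much. Their median was 0.89, against -0.06 over all protein-coding genes. Beta-actin itself (Actb) was at 334 FPKM on day 4 and 852 on day 6, and the actin cross-linker Flna was at 29.3 and 63.8 FPKM. The other called members were Tpm2 (a tropomyosin, 1.57), Ctgf (a secreted matricellular protein, 1.12) and Csrp1 (an actin-bundling LIM protein, 1.07). Flna, Csrp1 and Ctgf were under 2-fold with TPM. Day 4 lay below day 0 in 20 of the 21 genes, and day 6 lay below day 0 in 20. Not every target shared the direction, since Amotl2 (-0.95), Cyr61 (-0.66) and the integrin subunit Itga5 (-0.54) were lower on day 6.

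Promoter sequence was read for the contractile genes because SRF binds the CArG box, CC followed by 6 A or T bases and GG. For the 250 bases before the RefSeq start, 18 of the 21 genes could be matched. A CArG box on either strand was held by 4 of them (22.2%), against 1.62% of the 27025 genes with a promoter read. The list includes known SRF targets, so a share above that of all genes can follow from how it was made. The genes with a match were Myl9, Cnn2, Srf (the factor itself, 0.43) and Vcl (vinculin, 0.67), so Acta2, Tpm2, Flna and Csrp1 were called without one in this window. The stretches around the box in the promoters with the largest differences are shown on the RefSeq build GRCm38.p6, 5′ to 3′ on the gene's strand and with the box in capitals. The Myl9 stretch is at chr2:156775283-156775332 (plus strand) and ends 132 bases before the start, and the Cnn2 stretch is at chr10:79988524-79988573 (plus strand) and ends 27 bases before it.
Myl9: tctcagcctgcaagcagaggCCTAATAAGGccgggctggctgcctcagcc
Cnn2: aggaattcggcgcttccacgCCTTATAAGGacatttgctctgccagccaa
A match says that these letters are present, not that the site was used.

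Matrix and stromal genes moved in the same direction by less. Of 42 extracellular matrix genes 5 passed 2-fold upward and 2 downward, against 2.89% and 3.01% of all protein-coding genes, and their median was 0.26. Thbs1, the adhesive glycoprotein thrombospondin 1, was at 599.98 FPKM on day 0, 15.6 on day 4 and 64.2 on day 6, and the protease inhibitor Timp1 was at 557, 21.5 and 55.2. Both repeated the course of the contractile genes, a drop to day 4 and a partial return. Sparc (704 to 1532 FPKM), the proteoglycan Bgn (213 to 440.3) and fibronectin Fn1 (66.9 to 137) also passed 2-fold, though not with TPM, while the collagen Col5a3 (-1.15) and the laminin chain Lamb1 (-1.01, under 2-fold with median-ratio scaling) were lower. Among 18 preadipocyte and stromal markers 3 were at least 2-fold higher and 0 lower, with a median of 0.45: S100a4 (34.8 to 107 FPKM), Sfrp1, a secreted Wnt antagonist (13.0 to 40.1 FPKM), and the surface glycoprotein Thy1 (18.8 to 41.3 FPKM, under 2-fold with TPM). Pdgfra, the receptor that marks adipocyte precursors, was at 92.8, 7.70 and 11.9 FPKM on days 0, 4 and 6. All 18 were below their day 0 level on day 4, and 17 on day 6. In bulk RNA a larger share of undifferentiated cells and more RNA of these genes per cell cannot be told apart.

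All 13 protein-coding genes of the mitochondrial genome, which encode core subunits of the respiratory chain and ATP synthase, were higher on day 6. mt-Nd1, a complex I subunit, was at 754, 1363 and 6631 FPKM on days 0, 4 and 6, and mt-Co1, the catalytic subunit of cytochrome c oxidase, was at 1912, 5664 and 21910. At least 2-fold differences were found for 12 of the 13, the exception being mt-Atp8 (3076 to 5201 FPKM, 0.76), and the median was 1.65. The 2 mitochondrial rRNAs went the same way, mt-Rnr1 from 875 to 1929 FPKM and mt-Rnr2 from 711 to 1581, and fell just under 2-fold with TPM, as mt-Cytb and mt-Nd4l did. The mitochondrial genome's share of all FPKM was 2.84%, 5.54% and 15.3% on days 0, 4 and 6 in BAT.

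Nuclear genes of the same complexes differed far less. Complex I subunits had a median of 0.21, with 28 of 37 higher and 0 past 2-fold, complexes II to IV with cytochrome c had 0.26 and ATP synthase 0.31. Ndufa2, an accessory subunit of complex I, showed the largest difference of its list, from 449 to 759 FPKM, whereas Ndufs1, the large iron-sulphur subunit, went from 169 to 126 FPKM. These proteins are short, and transcript length moved with the change in BAT: the median difference was 0.14 in the tenth of genes with the shortest transcripts and -0.20 in the tenth with the longest (Spearman's rho across 11238 genes -0.16, a description, since the genes share both libraries). With that trend removed the medians were 0.06, 0.09 and 0.18. Cytosolic ribosomal proteins, equally short, were higher in 77 of 78 genes with a median of 0.43, and 0.28 with the trend removed. Rpl10 alone passed 2-fold (721 to 1489 FPKM), and not with the trend removed. The part of the length trend in these medians was not tested further.

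Brown adipocyte markers moved down as a group. Of 27 described, 0 were at least 2-fold higher and 9 at least 2-fold lower, and the median was -0.51. Elovl3, an elongase of very long chain fatty acids that is strongly induced in brown fat by cold, was at 0 FPKM on day 0, 125.1 on day 4 and 7.94 on day 6, a 15.8-fold difference (95% counting interval 14.0 to 17.9) and the largest decrease among the named protein-coding genes. Cidea, a lipid droplet protein enriched in brown fat, was at 0, 284 and 115 FPKM. Ucp1 was at 0, 9.92 and 3.65 FPKM. For these 3 genes day 4 was the highest of the 3 BAT libraries.

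The other brown markers past 2-fold were the hormone Fgf21 (7.74 to 0.608 FPKM), the coenzyme A synthesis enzyme Pank1 (14.2 to 3.62), Cpt1b, which brings fatty acids into mitochondria (166 to 49.7), Mpzl2 (10.8 to 3.40), the coactivator Ppargc1a (4.79 to 1.67) and the pyruvate dehydrogenase kinase Pdk4 (101 to 47.9). Not all members followed. Adrb3, the beta-3 adrenergic receptor, was at 67.6 FPKM on day 4 and 130 on day 6, Cox7a1, a subunit of cytochrome c oxidase, at 1246 and 1968, and Cox8b at 428 and 435. Prdm16, a regulator of brown fate, was at 0.747 and 1.36 FPKM, and Zic1, a marker of the interscapular lineage, at 14.5, 3.27 and 2.39 on days 0, 4 and 6. Zic1 was near 0 in both later WAT libraries (0.0181 and 0), while Dio2, the thyroid hormone deiodinase, was at or near 0 in both BAT libraries. Genes common to all adipocytes gave a median of 0.00: Adipoq was at 823 and 1174 FPKM and Pparg at 171 and 222, while Fabp4, the most abundant of them, was at 41438 and 26709.

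**Figure D2:**
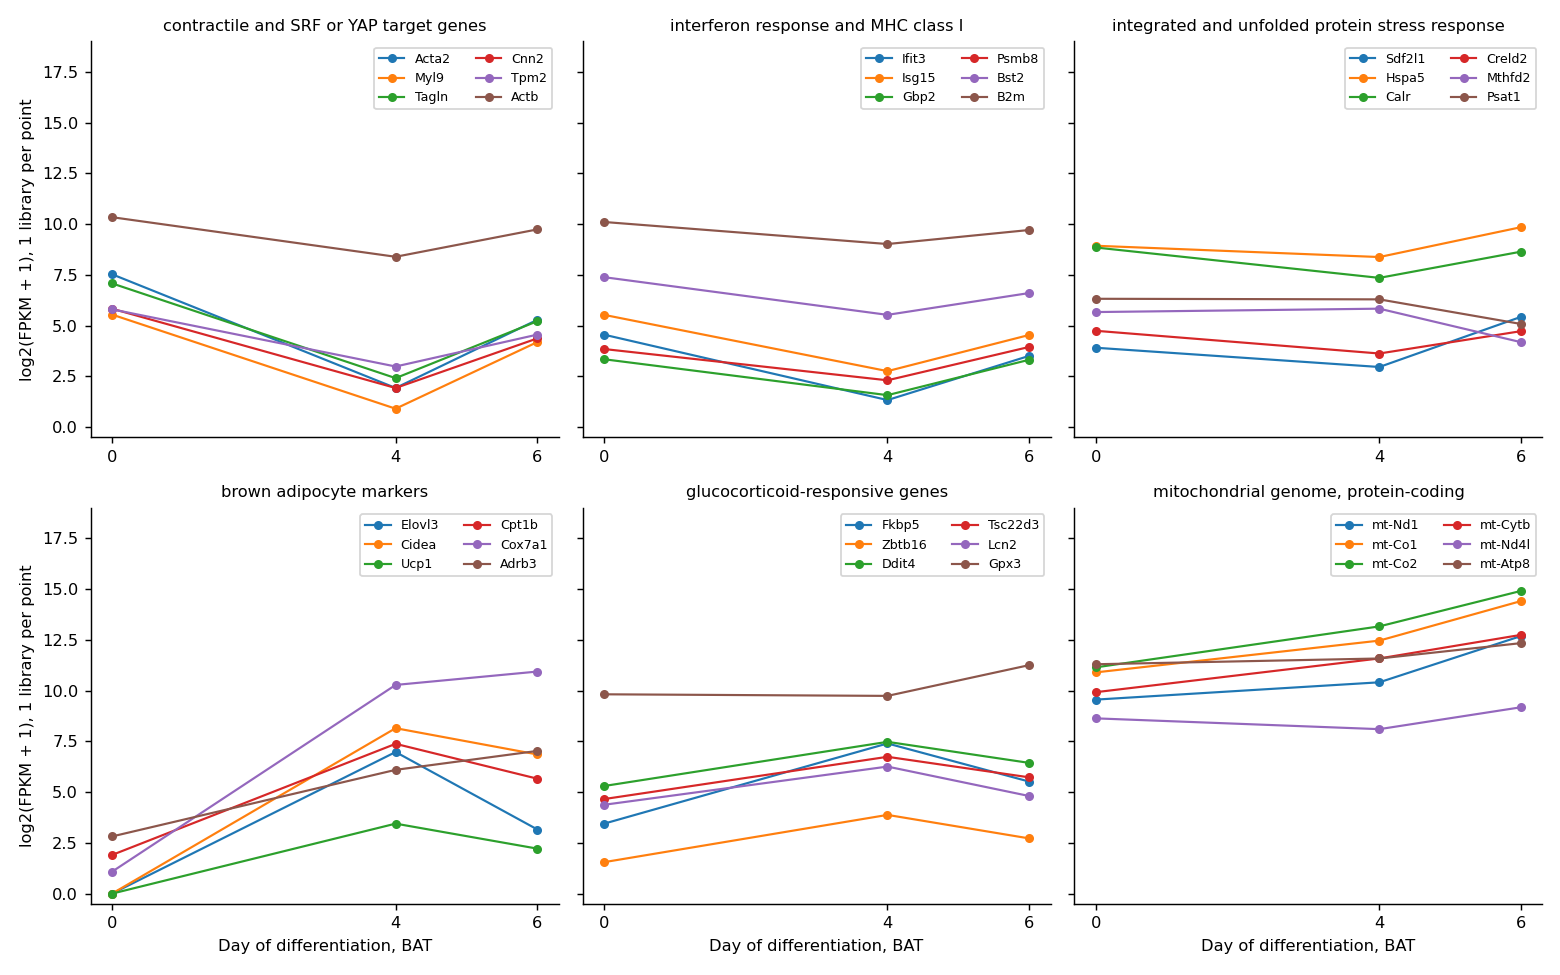
Levels of 6 genes from each of 6 lists in the BAT libraries on days 0, 4 and 6, as log2(FPKM + 1), with 1 library per point and lines joining the points of a gene. Contractile and interferon genes shown were lowest on day 4, and most brown and glucocorticoid-responsive genes shown were highest on day 4, with Cox7a1, Adrb3 and Gpx3 highest on day 6.

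Fatty acid oxidation showed the same direction as the brown markers. The mitochondrial list had a median of -0.42, with 17 of 21 genes lower, against 54.9% of all protein-coding genes. Of the 21 only 1, Cpt1b, was past 2-fold, near the 3.01% of all protein-coding genes at least 2-fold lower. Hadha, a subunit of the trifunctional protein, went from 584 to 329 FPKM, and Acadm, the medium-chain dehydrogenase, from 717 to 435. Peroxisomal genes had a median of -0.34, with 27 of 32 lower. The 2 past 2-fold were Acaa1b (87.7 to 31.5 FPKM) and Ehhadh (22.05 to 10.02 FPKM), both enzymes of peroxisomal beta-oxidation. TCA cycle genes had -0.30, and regulators of mitochondrial biogenesis -0.31, led by Ppargc1a (-1.12) and its relative Ppargc1b (16.3 to 7.64 FPKM, under 2-fold with median-ratio scaling or with the length trend removed). Of the 19 regulators 16 were lower and 2 passed 2-fold. Fatty acid synthesis did not share the direction, with a median of 0.05 and 12 of 22 genes higher, and fatty acid uptake had -0.07 with 9 of 19 higher. With TPM fatty acid synthesis had -0.13, beside -0.22 over all protein-coding genes. Triglyceride synthesis had -0.34 with 15 of 19 lower. Lpin1, the phosphatidate phosphatase of triglyceride synthesis, was at 172 and 68.6 FPKM, and the droplet protein Cidec at 563 and 245.

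Signalling genes of lipolysis had a median of -0.32, with 4 of 32 at least 2-fold lower and 0 higher. Npr1, the natriuretic peptide receptor, was at 13.3 and 2.49 FPKM, and Prkar2b, a regulatory subunit of protein kinase A, at 224 and 104. Pde4d, a cAMP phosphodiesterase, was at 25.8 and 5.18 FPKM, though the symbol has more than 1 entry in the table and these values are those of a short one.

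Genes known to respond to glucocorticoid had a median of -0.63. Of 19 described, 6 were at least 2-fold lower and 1 at least 2-fold higher. Fkbp5, a co-chaperone of the glucocorticoid receptor and a standard readout of its activity, was at 9.89 FPKM on day 0, 168 on day 4 and 44.9 on day 6, a 3.74-fold difference (95% counting interval 3.56 to 3.94). Tsc22d3, which encodes GILZ, was at 24.3, 106 and 52.1 FPKM, and Ddit4, an inhibitor of mTORC1, at 38.4, 178 and 85.9, both under 2-fold with median-ratio scaling. Zbtb16 (-1.16), Lcn2 (-1.45) and Pdk4 (-1.06) completed the lower group. Gpx3, the secreted glutathione peroxidase, was the exception at 857 and 2454 FPKM. Of the 16 lower genes, 14 had been higher on day 4 than on day 0, a count that the shared day 4 library can favour.

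Secreted proteins included several of the largest increases. Cfd, the complement factor adipsin, was at 68.6, 96.8 and 748 FPKM on days 0, 4 and 6, a 7.72-fold difference (95% counting interval 7.30 to 8.17). Orm1, the acute-phase protein orosomucoid, was at 0.102, 7.08 and 78.0 FPKM, and Itih4, an inter-alpha-trypsin inhibitor heavy chain, at 1.16, 1.32 and 69.0, the largest increase among the named protein-coding genes (52.3-fold). Both, unlike the contractile genes, were far above the preadipocyte level on day 6. In the acute-phase and complement list 6 of 20 were at least 2-fold higher and 1, Lcn2, lower, with a median of 0.81, and they included haptoglobin (Hp, 1012 to 2772 FPKM) and complement C4b (30.3 to 92.6).

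Adipokines and other secreted factors had 7 of 22 at least 2-fold higher and 3 lower, with a median of 0.53. Lep, the satiety hormone leptin, was at 0.245 FPKM on day 4 and 4.92 on day 6, and the chemokine Ccl2 at 3.38 and 18.6. Apoe (929 to 2058 FPKM), Rarres2, which encodes chemerin (314 to 689), and the phospholipid transfer protein Pltp (25.9 to 54.3) passed 2-fold, though not with TPM. Vegfa, the angiogenic factor, was at 295 and 118 FPKM. Among 10 white adipocyte markers, Lep, Nnmt (31.7 to 112 FPKM), Inhbb (0.726 to 2.78) and Retn, which encodes resistin (253 to 521, under 2-fold with TPM), were at least 2-fold higher and Psat1 was lower. The median of that list, 0.14, turned to -0.02 with TPM, which also moved the median over all protein-coding genes from -0.06 to -0.22.

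Interferon response and MHC class I genes were higher in 25 of 26 cases. At least 2-fold differences were found for 8 and none was that much lower, with a median of 0.67. Ifit3, an interferon-induced inhibitor of viral RNA translation, was at 22.4 FPKM on day 0, 1.51 on day 4 and 10.4 on day 6, and the ubiquitin-like modifier Isg15 was at 45.1, 5.74 and 22.2. Both were lowest on day 4. Gbp2, a guanylate-binding protein (1.75), Psmb8, an immunoproteasome subunit (1.64), Ifit1 (1.37), Bst2, known as tetherin (1.08), Ifitm2 (1.01) and Ifitm3 (121 to 243 FPKM) also passed 2-fold, the last 3 not with TPM. B2m, the light chain of MHC class I, was at 516 and 835 FPKM.

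The promoters of these genes are shown because interferon-stimulated genes are known for an element with GAAA repeats. The pattern GAAA, any 2 bases, GAAA was found on either strand in 10 of 22 matched genes (45.5%), against 3.46% of all 27025 genes. It was held by 6 of the 8 genes past 2-fold. The list is one of known interferon response genes, so a share above that of all genes can follow from how it was made. A part of the element in the change was not tested. The stretches of Ifit3, Isg15, Gbp2 and Ifit1 follow, on GRCm38.p6, with the matches in capitals and reading on the gene's strand, so that a match on the other strand appears as TTTC, 2 bases, TTTC. They are at chr19:34583353-34583436 (plus strand) for Ifit3, chr4:156200855-156200916 (minus strand) for Isg15, chr3:142620584-142620633 (plus strand) for Gbp2 and chr19:34640765-34640833 (plus strand) for Ifit1. Isg15 holds 3 overlapping matches and Ifit3 and Ifit1 hold 2 each.
Ifit3: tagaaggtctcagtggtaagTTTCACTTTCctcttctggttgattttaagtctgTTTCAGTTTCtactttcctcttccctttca
Isg15: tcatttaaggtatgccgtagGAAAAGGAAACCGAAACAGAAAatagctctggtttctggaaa
Gbp2: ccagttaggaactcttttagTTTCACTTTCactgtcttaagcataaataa
Ifit1: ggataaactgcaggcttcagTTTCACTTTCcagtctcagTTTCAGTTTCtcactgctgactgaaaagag
The members without a match include Psmb8 and Ifitm3, which were also past 2-fold.

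Within the list of stress response genes, several chaperones of the endoplasmic reticulum were higher on day 6 while several targets of the factor ATF4 were lower. Sdf2l1, a component of the chaperone complex of the endoplasmic reticulum, was at 14.0, 6.76 and 42.1 FPKM on days 0, 4 and 6, and Hspa5, its main chaperone BiP, at 487, 331 and 920. Calr, the lectin chaperone calreticulin, was at 162 and 398 FPKM, and Creld2 at 11.3 and 25.4 (under 2-fold with TPM). Not all such members rose: Pdia4 (0.72) and Xbp1 (0.51) were higher by less, Dnajb9 (0.16) hardly differed, and Edem1 (-0.13) and Herpud1 (-0.16) were slightly lower. Derl3, which acts in the removal of misfolded proteins and was named by its size and not by the list, was at 1.15 and 10.9 FPKM. The 3 members at least 2-fold lower were Fgf21, the folate enzyme Mthfd2 (55.9 to 17.1 FPKM) and the serine synthesis enzyme Psat1 (77.2 to 32.7), all known targets of ATF4, and Atf4 itself was at 297 and 204. Over the 24 genes the median was -0.21, with 8 higher and 16 lower.

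The consensus of the endoplasmic reticulum stress element is CCAAT, any 9 bases and CCACG. It was found on either strand in 4 of the 24 genes (16.7%), namely Hspa5, Calr, Creld2 and Hsp90b1, against 0.13% of all 27025 genes. The list is one of known stress response genes, so a share above that of all genes can follow from how it was made. A part of the element in the change was not tested. The first 3 are past 2-fold and Hsp90b1 went from 183 to 330 FPKM. The stretches on GRCm38.p6 are at chr2:34772005-34772063 (plus strand) for Hspa5, chr8:84847055-84847113 (minus strand) for Calr and chr15:88819500-88819558 (plus strand) for Creld2, read on the gene's strand with the element in capitals, which lies on the other strand in Calr and Creld2.
Hspa5: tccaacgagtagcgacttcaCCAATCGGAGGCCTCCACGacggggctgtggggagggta
Calr: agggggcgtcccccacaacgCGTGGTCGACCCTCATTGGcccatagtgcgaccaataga
Creld2: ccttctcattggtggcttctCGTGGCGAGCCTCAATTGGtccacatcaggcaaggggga
Sdf2l1, with the largest difference of the list, held no match in this window.

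Several further groups were less uniform. Antioxidant and glutathione genes had 7 of 34 at least 2-fold higher and 0 lower (median 0.29), among them the glutathione transferases Gstm2 (59.3 to 197 FPKM), Gstm1 (86.0 to 205) and Gstt1 (4.69 to 15.9). Of the genes of mitochondrial uncoupling, carriers and the creatine cycle, Gamt, which completes creatine synthesis, was at 3.32 and 26.4 FPKM, and the brain-type creatine kinase Ckb at 15.01 and 41.7. These were the 2 of 19 at least 2-fold higher, in a list whose median was -0.29 and in which 16 of 19 were lower, Ucp1 and the carrier Slc25a34 (64.7 to 27.9 FPKM) at least 2-fold. Immediate early genes had a median of -0.39, with 6 of 22 at least 2-fold lower, including the transcription factors Maff (41.5 to 14.8 FPKM) and Myc (26.0 to 11.3), and 1 higher, Junb (59.8 to 122, under 2-fold with TPM). In glycolysis, Pfkfb3, which makes the activator of phosphofructokinase, was at 7.20, 254 and 68.4 FPKM on days 0, 4 and 6, and the hexokinase Hk2 at 98.8 and 45.1. Cholesterol synthesis had 2 of 22 past 2-fold, both lower, namely the enzymes Lss (60.7 to 18.03 FPKM) and Cyp51 (50.6 to 16.2).

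The remaining genes named by size were of varied function. Among increases were Sncg, gamma-synuclein (14.6 to 179 FPKM), Cbx8, a Polycomb protein (2.72 to 49.8), Mb, myoglobin (8.30 to 72.3), and Cish, an inhibitor of cytokine signalling (1.79 to 13.1). Among decreases were the cytochrome P450 Cyp2e1 (16.4 to 2.05 FPKM), Rarres1 (28.5 to 4.38), Limk1, a kinase of cofilin (33.8 to 7.21), and Suv420h2, a histone H4 methyltransferase (66.5 to 18.4). Tmem82, Rassf6, Cd164l2, Gm2399, Arl6ip6 and Pcsk4 were also lower, with differences from -2.53 to -1.77 on the log2 scale. Mb, Tagln, Elovl3, Npr1, Tmem82, Cd164l2 and Cish each overlap a gene on the opposite strand, and although the kit keeps strand, whether the quantification used it is not given in the sources used here. Acly, which makes acetyl-CoA for lipogenesis, was listed at 0 in both BAT libraries, and Stard7, a lipid transfer protein, was listed at 83.0 FPKM on day 4 and at 0 on day 6. Zeros of such genes in files without counts can be failed estimates, so no fold is given.

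Of 20 macrophage markers 16 were described, with summed FPKM of 87.8 on day 4 and 118 on day 6 and a median of 0.34. Of the 16, 12 were higher, against 45.1% of all protein-coding genes, and 1 was past 2-fold (Laptm5, 0.760 to 2.54 FPKM, under 2-fold with TPM). The part of these markers in the interferon and complement genes was not tested. Lyz2 was at 38.1 and 54.4 FPKM and Cd68 at 4.79 and 6.89, while Csf1r (1.23 to 0.670 FPKM) and Itgam (1.03 to 0.503) were among the 4 lower. All 14 lymphocyte and blood cell markers were under 1 FPKM, with 0.439 the highest. Of skeletal muscle markers 3 of 18 were described, Myod1 and Myf5 were at 0 on both days, and Mylpf, a fast muscle light chain, was at 0.715 and 4.68 FPKM. Endothelial markers summed to 16.7 and 17.7 FPKM, and cell cycle genes had a median of -0.28. Of the Hox genes singled out by the study 3 of 5 were described, with differences between -0.28 and 0.24.

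WAT cells, which share no library with BAT, gave the same step for comparison. Over the same 11251 genes 436 (3.88%) were at least 2-fold higher and 144 (1.28%) at least 2-fold lower, and 72.5% were higher by any amount, with a median of 0.21. The changes correlated across genes at Pearson's r 0.45 and Spearman's rho 0.38, a description over genes that share 4 libraries. Genes at least 2-fold higher in both numbered 129, 39.7% of the BAT set and 29.6% of the WAT set, and those lower in both 60, 17.7% and 41.7%. Of the 30 protein-coding genes named by size 28 had the same sign in WAT. Acta2 was at 6.82 and 54.5 FPKM on days 4 and 6 in WAT, Elovl3 at 189 and 16.6 and Fkbp5 at 143 and 36.5, each close to its course in BAT.

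Some groups differed between depots, although with 1 library per condition that difference could not be tested. The mitochondrial genome had a median of 1.65 in BAT and 0.31 in WAT, and its share of FPKM in WAT was already 11.1% on day 4 and 14.1% on day 6. Cytosolic ribosomal proteins had 0.43 and 0.06, and complex I 0.21 and -0.20. Brown markers had -0.51 and -0.04, beside medians over all protein-coding genes of -0.06 in BAT and 0.21 in WAT. In WAT 5 of the 27 were at least 2-fold lower and 1 higher, against 1.28% and 3.88% of all protein-coding genes described. Fatty acid oxidation was lower in both (-0.42 and -0.60), and Ucp1 was at only 0.477 and 0.175 FPKM in WAT. Contractile genes (0.89 and 1.05), interferon genes (0.67 and 0.67) and acute-phase genes (0.81 and 0.95) were higher in both. Macrophage markers had 0.34 in BAT and 0.99 in WAT. There 16 of 16 were higher, 8 of them at least 2-fold, against 72.5% and 3.88% of all protein-coding genes described. Their summed FPKM in WAT was 250.1 on day 4 and 466 on day 6. Their part in the WAT values of the interferon and acute-phase genes was not tested. Protein-coding genes past 2-fold in opposite directions, with no value at 0, numbered 3, namely Gm9853, Homez and Mylpf. BC048355 and Stard7 met the rule only through values listed at 0.

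**Figure D3:**
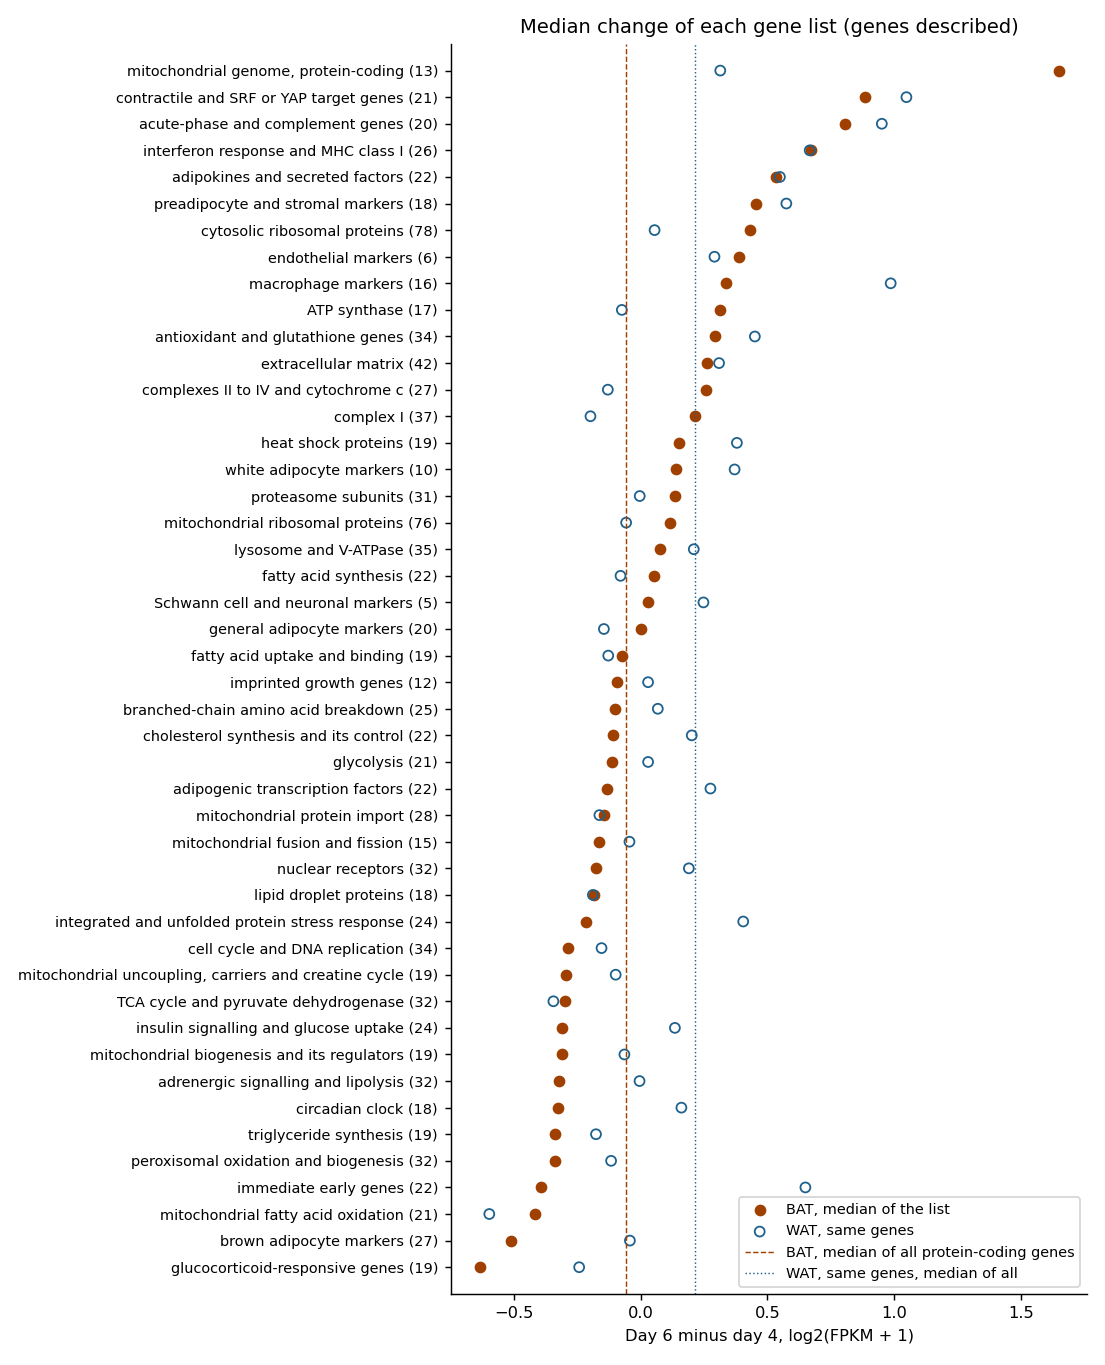
Median difference of day 6 minus day 4, as log2(FPKM + 1), for each gene list with at least 5 described genes (number in brackets), in BAT (filled) and for the same genes in WAT (open), with vertical lines at the medians over all protein-coding genes, -0.06 in BAT and 0.21 in WAT. The mitochondrial genome list lies furthest right in BAT at 1.65 and the glucocorticoid-responsive list furthest left at -0.63.

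Short RNA loci behaved unlike protein-coding genes. Of 118, 25 (21.2%) were at least 2-fold higher and 62 (52.5%) lower by that much. Their median was -1.052, and 45 were at exactly 0 on 1 of the days. None of the 678 entries with a Mir name reached 1 FPKM in BAT. All 41 described loci of miRNA type carry clone names. Loci outside the mitochondrial genome took 11.99% of all FPKM on day 4 and 5.97% on day 6.

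The clone-named loci are shown by sequence because their values cannot be read locus by locus. Of 40 read from mm9, 15 loci of 102 bases on 9 chromosomes have 1 identical sequence, given here 5′ to 3′ on the locus strand as at chr1:146826614-146826715 (minus strand), where AC102320.1 lies.
AC102320.1: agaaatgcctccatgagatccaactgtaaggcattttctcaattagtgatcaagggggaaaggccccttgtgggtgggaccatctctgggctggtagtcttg
Despite the same bases, AC102320.1 was listed at 440 FPKM on day 4 and 9928 on day 6, whereas AL773580.1 and AC113178.1 were each listed at 17142 and 172. Differences among the 15 ranged from -6.63 to 4.49, with 2 at least 2-fold higher and 10 at least 2-fold lower. On day 4, 10 of the 15 had exactly the smallest value, 440 FPKM, and on day 6, 9 had 172. The smallest value was thus 2.55 times as large on day 4 as on day 6. Summed over the 15 loci the level was 69227 FPKM on day 4 and 27029 on day 6, but 157.5 and 157 times the smallest value of each library, so the lower FPKM on day 6 is no larger than the difference in that unit. The 5 near-identical loci of 101 bases share at least 99.0% of bases, counted on the opposite strand for AC164649.1. Their smallest values above 0 were 962 and 377 FPKM, again 2.55 times apart. They summed to 4 and 46.3 times these values, with AC155948.1 listed at 0 on day 4. Reads from such copies cannot be assigned to 1 of them, and neither single values nor sums in FPKM are comparable between days at these sizes. The counts of short loci past 2-fold and their share of FPKM include these loci.

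A second family holds 19 loci of 124 to 126 bases (at least 96.0% of bases shared, counted on the opposite strand for AC154229.1). On each day 7 of these loci were listed at 0. The family summed to 1296 and 600.2 FPKM, a pair of sums not compared here for the same reason. Loci of more than 160 bases were less scattered, and 42 of 52 were lower on day 6, against 67.8% of all short RNA loci. The low values fitted best with 210 bases taken off transcript length on day 4 and 180 on day 6, which is near the size of these loci, and the part of that difference in their FPKM was not tested. 7SK, the RNA that holds the elongation factor P-TEFb inactive, was at 84.5, 145 and 74.0 FPKM on days 0, 4 and 6. RNase_MRP, the RNA of the enzyme that processes rRNA precursors, was at 64.8, 91.2 and 29.5, and the miscellaneous RNA AC099934.1 at 710.1, 1775 and 707.2. All 3 had their highest BAT level on day 4, and in WAT day 4 was higher still (424, 428 and 4756 FPKM). These 3 loci were not among the 10 largest increases or decreases and were named outside the rule. Their shared course therefore does not stand for all loci of this size. AC099934.1 cannot be taken as a separate RNA, since AC157822.1, also of 297 bases, had almost the same values. It was at 709.8, 1770 and 707.2 FPKM in BAT and at 4751 on day 4 in WAT. Whether these loci share reads was not tested. The snoRNA SNORA42 was listed at 1594 FPKM on day 4 and at 0 on day 6. Among the other named short loci the U4 snRNA was at 192 and 15.2 FPKM and Rnu3a, a U3 snoRNA, at 26.9 and 7.31, while snoU6-77 was at 22.6 and 77.2 and Snord22 at 0.00104 and 22.8.

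**Figure D4:**
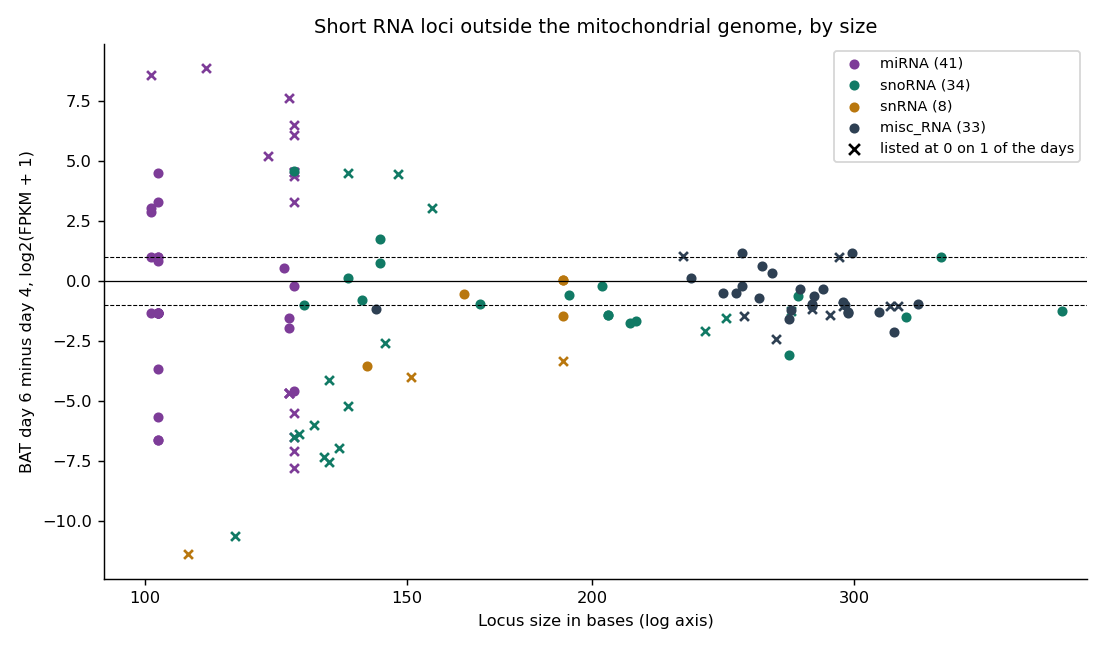
Difference of day 6 minus day 4 in BAT, as log2(FPKM + 1), against locus size in bases on a log axis for the 116 short RNA loci outside the mitochondrial genome, coloured by annotated type, with crosses for loci listed at 0 on 1 of the days and dashed lines at 2-fold. Loci of up to 160 bases spread between -11.4 and 8.85, while those above 160 bases lie nearer to 0 and mostly below it.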

How the data were processed

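RNA-seq libraries were made by the authors from total RNA with a directional kit, aligned to mm9 with TopHat 2.0.11 and quantified with Cufflinks 2.1.1. The deposited values are FPKM per gene, with no further normalization stated, and no counts were used. The table has 37841 entries, of which 3376 repeated a symbol and were left out in favour of the entry with the highest mean. Gene types and lengths came from GENCODE M1, which holds 97.9% of the IDs, and promoters and their starts from RefSeq on GRCm38.p6.

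Differences were computed as log2(FPKM + 1), with a pseudocount of 1, a floor of 1 FPKM in either BAT library and a 2-fold rule, in Python 3.11.15 with pandas 2.3.3 and statsmodels 0.14.6. With 1 library per condition no test was run. Fragments behind a value were estimated from depth, and exact 95% intervals on them cover counting error only and are approximate. For 83.6% to 84.4% of the low values used, the fragment number was within 0.1 of a whole number. Depth and the length taken off were chosen to make this share largest, so it is not an independent check.

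Named by rule were the 15 largest increases and decreases among protein-coding genes with at least 10 FPKM in 1 library and above 0 in both, the 10 largest among short RNA loci, and members of 49 gene lists; BC048355, Gm9853, Homez and Stard7 were named after their values were seen. Short RNA loci outside the 10 largest were also named, and these lie outside the stated rule. The members and lists were chosen with earlier results of these data known. Alternatives were other pseudocounts, filters, folds and scalings, summed entries, removal of the length trend (lowess, span 0.3), and loci at 0 left out. The fold rule and the trend removal were tested on simulated data. Some members of the lists are not reported here by name.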

Additional observations from a re-analysis of the deposited data

Results flagged for a closer look

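The following results had opposite signs in BAT and WAT and lay at least 2-fold apart, and with 1 library per condition the difference between depots was not tested. Pfkfb3 changed by -1.88 in BAT (254 to 68.4 FPKM) and by 0.030 in WAT (139 to 142 FPKM). Its WAT value is near 0 and below the WAT median of 0.21 over all protein-coding genes, so its sign there carries little weight. Arl6ip6 changed by -1.77 in BAT (18.2 to 4.61 FPKM) and by 0.77 in WAT (8.43 to 15.05 FPKM). Immediate early genes had a median of -0.39 in BAT and 0.65 in WAT, beside -0.06 and 0.21 over all protein-coding genes. The 2-fold distance was taken without these medians being subtracted. In WAT 5 of the 22 genes were at least 2-fold higher and 0 lower, against 3.88% and 1.28% of all protein-coding genes described. Fos was at 121 and 72.8 FPKM in BAT and at 66.1 and 132 in WAT.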

How the results depend on the processing

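No paired analysis was possible because each condition has 1 library. With a pseudocount of 0.1, 545 protein-coding genes were at least 2-fold higher and 680 lower; with a pseudocount of 5, 139 and 103; with a 1.5-fold rule, 1105 and 1428; and with a 4-fold rule, 27 and 17. TPM gave 673 lower genes, and TPM over nuclear protein-coding genes only, added after the data were seen, gave 612 lower and 309 higher, so that 33.6% of calls were higher. For short RNA loci the 4-fold rule left 30 lower, and leaving out loci at exactly 0 left 10 higher and 32 lower. The other 37 of 50 alternative counts stayed within 1.5 times the value reported. Across the settings tried, no named gene at least 2-fold changed turned its direction. The median of complex I went from 0.21 to 0.03 with TPM, while that over all protein-coding genes went from -0.06 to -0.22. The median of brown markers went from -0.51 to -0.91 with a floor of 5 FPKM, where it lay below the -0.62 of glucocorticoid-responsive genes. Medians near 0 changed sign under at least 1 setting for white adipocyte markers, general adipocyte markers, fatty acid synthesis, fatty acid uptake, heat shock proteins, proteasome subunits, lysosome, Schwann cell and neuronal markers and mitochondrial ribosomal proteins. These signs are taken against 0 and not against the median over all protein-coding genes. Genes named by size, the named short RNA loci and all described list members together held 156 past 2-fold, some not reported here by name. Under TPM 26 of the 156 no longer were, and under a pseudocount of 5, 39. Depth limits low genes most, as for Myl9, with about 5 fragments on day 4.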

Other observations

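Lists not described above are given by their medians, beside -0.06 over all protein-coding genes (-0.22 with TPM). Mitochondrial ribosomal proteins had a median of 0.12 (-0.06 with TPM), proteasome subunits 0.14 (-0.04 with TPM) and lysosome and V-ATPase genes 0.08 (-0.10 with TPM). Circadian clock genes had -0.32 with 14 of 18 lower and 1 past 2-fold, insulin signalling and glucose uptake -0.31 with 17 of 24 lower, nuclear receptors -0.18 and adipogenic transcription factors -0.13. Branched-chain amino acid breakdown had -0.10, mitochondrial protein import -0.14 and mitochondrial fusion and fission -0.16, with 13 of 15 lower.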
